A study of Mus musculus with 9 samples.

Results

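10 genes of white fat and of fatty acid synthesis were followed in whole mouse hearts: Adipoq, Cfd, Retn and Lep, which encode secreted products of fat cells, Plin1 and Car3, which encode intracellular proteins abundant there, and Thrsp, Fasn, Acaca and Scd1 of lipogenesis. They were taken by gene symbol from the deposited expression table, whose 45037 probe sets tested include 19760 with 1 gene symbol. Of the 10 genes 9 had a row, each with 1 probe set, and Plin1 had none under its symbol or a listed synonym, so it has no value here. The authors gave symbols for 20662 rows only, so any other probe set of a gene named here was not read. The hearts came from 15-week-old male mice on the FVB strain background, 3 mice and 3 arrays per genotype. GlycoHi hearts expressed a phosphatase-deficient phosphofructokinase 2, GlycoLo hearts a kinase-deficient one, and WT hearts neither. The labels name neither the promoter that drives the transgenes nor the number of founder lines.

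A white fat cell stores triglyceride in 1 large droplet and secretes hormones such as adiponectin and leptin. Its fatty acids are built from acetyl-CoA by acetyl-CoA carboxylase and fatty acid synthase, and a desaturase then turns part of the saturated product into oleate. The adult heart burns fatty acids and makes few of them, and fat tissue lies on its surface and around its vessels, so a dissected heart can carry fat cells with it.

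Pfkfb1, which encodes a phosphofructokinase 2 of liver and serves as a check of the labels, lay between 14.40 and 14.43 on the log2 scale in GlycoHi hearts and between 14.34 and 14.37 in GlycoLo hearts, against 7.74 to 7.97 in WT hearts. All 6 transgenic hearts thus carried the high level and all 3 WT hearts the low one. As both lines were at nearly the same high level, this check cannot tell which arrays are GlycoHi and which are GlycoLo. The array medians lay between 4.76 and 4.80 over the 9 arrays. The summed linear level of 10 cardiomyocyte genes was 87996 to 92933 in GlycoHi, 91796 to 94712 in GlycoLo and 93367 to 96374 in WT hearts, and Tnni3, a cardiac troponin, lay between 13.77 and 13.82 on every array. WT replicate 3 stood apart from the other hearts with the highest level of Adipoq, Cfd and Car3, and several differences and correlations are also given without it.

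The promoters of 8 of the 10 genes were found in RefSeq (mouse build GRCm38.p6), and 4 are shown here, because Thrsp was the only gene called between genotypes, Fasn encodes the central enzyme of its pathway, and Adipoq and Cfd varied together between hearts. Each line is the 250 bases before the annotated start, 5′ to 3′ on the strand of the gene, with matches to CCAAT, read on either strand, in capitals. Thrsp lies on the minus strand (chr7:97417551-97417800), Fasn on the minus strand (chr11:120824548-120824797), Adipoq on the plus strand (chr16:23146286-23146535) and Cfd on the plus strand (chr10:79890603-79890852).
Thrsp: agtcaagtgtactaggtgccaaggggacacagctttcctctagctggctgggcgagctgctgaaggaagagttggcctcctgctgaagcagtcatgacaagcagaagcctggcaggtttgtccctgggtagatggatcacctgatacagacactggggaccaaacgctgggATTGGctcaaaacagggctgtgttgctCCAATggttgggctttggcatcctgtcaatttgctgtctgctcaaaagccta
Fasn: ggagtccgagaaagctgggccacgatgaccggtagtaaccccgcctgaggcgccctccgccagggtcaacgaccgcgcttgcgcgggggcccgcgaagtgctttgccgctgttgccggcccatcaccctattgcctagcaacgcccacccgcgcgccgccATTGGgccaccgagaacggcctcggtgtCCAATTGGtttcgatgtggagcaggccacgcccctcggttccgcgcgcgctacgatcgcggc
Adipoq: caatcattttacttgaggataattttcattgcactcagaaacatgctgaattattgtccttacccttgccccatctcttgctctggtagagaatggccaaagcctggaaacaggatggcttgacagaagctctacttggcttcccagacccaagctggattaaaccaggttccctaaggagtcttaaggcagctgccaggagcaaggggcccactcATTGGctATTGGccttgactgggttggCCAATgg
Cfd: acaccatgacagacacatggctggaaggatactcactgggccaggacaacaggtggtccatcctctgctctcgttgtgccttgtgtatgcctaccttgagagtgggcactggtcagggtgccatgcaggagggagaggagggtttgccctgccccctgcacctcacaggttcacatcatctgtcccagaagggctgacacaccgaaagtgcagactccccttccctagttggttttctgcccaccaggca
Thrsp had CCAAT 79 and 52 bases before its start. Fasn had it 90, 62 and 59 bases before its start, the matches at 62 and 59 overlapping on opposite strands. Adipoq had it 34, 27 and 7 bases before its start, and Cfd had no match. CCAAT occurred in 33.8% of 32851 promoters of the same length. The other motifs searched on both strands were CACGTG (in 6.02% of all promoters), TATAAA (12.4%), TCACNCCAC (1.05%) and TTGCGCAA (0.164%), and none of them was found in these 4 sequences. A match is a run of letters and not a measured binding site.

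Between the hearts, Adipoq, Cfd and Car3 varied more than nearly all other probe sets on the array and did so together, whereas Retn and Lep lay in narrow ranges. The SD over the 9 arrays was also larger than that of 99.7% of the probe sets for Scd1 and for Thrsp, and of 98.9% for Fasn. Thrsp differed between genotypes and hardly within them. Fasn, Acaca and Scd1 lay between these patterns. In RNA from whole hearts, fewer cells of a type and less RNA per cell cannot be told apart.

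Adipoq encodes adiponectin, a hormone made by fat cells that increases insulin sensitivity. Its level was 5.62, 4.46 and 4.60 in GlycoHi hearts 1 to 3, and 6.32, 4.77 and 6.16 in GlycoLo hearts, against 5.63, 6.20 and 7.78 in WT hearts. All GlycoHi hearts lay below all WT hearts, though GlycoHi replicate 1 and WT replicate 1 were nearly equal, and the GlycoLo hearts overlapped with both other genotypes. The 9 hearts spanned 9.96-fold, and the 3 WT hearts alone 4.44-fold. The SD over the 9 arrays was larger than that of 99.95% of the probe sets.

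Cfd encodes adipsin, also called complement factor D, a serine protease of the alternative complement pathway that fat cells secrete. Its level was 6.51, 5.85 and 5.98 in GlycoHi and 6.87, 5.74 and 6.68 in GlycoLo hearts, against 6.54, 6.98 and 8.56 in WT hearts. The GlycoHi hearts again lay below the WT hearts, by a small gap at replicate 1, and GlycoLo replicate 2 was the lowest of all hearts. The range over the 9 hearts was 7.09-fold.

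Car3 encodes carbonic anhydrase 3, a cytosolic enzyme abundant in fat and in slow skeletal muscle. Its level was 9.08, 8.53 and 8.73 in GlycoHi and 10.07, 8.73 and 9.96 in GlycoLo hearts, against 9.23, 10.20 and 11.39 in WT hearts. The GlycoHi hearts did not overlap with the WT hearts, and the GlycoLo hearts overlapped with both. The range over the 9 hearts was 7.30-fold.

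Retn and Lep, the genes of the fat hormones resistin and leptin, showed little of this spread. The level of Retn was 5.01, 5.20 and 5.09 in GlycoHi and 5.21, 5.25 and 5.26 in GlycoLo hearts, against 4.95, 5.21 and 5.42 in WT hearts. These values lay between the percentiles 52.7 and 58.7 of their arrays, and the WT hearts enclosed those of the other genotypes. Lep was at 2.86, 2.80 and 2.86 in GlycoHi and 2.99, 2.98 and 2.86 in GlycoLo hearts, against 2.84, 2.69 and 2.86 in WT hearts. That is between the percentiles 7.51 and 15.8 of the arrays, and 3 arrays had the identical value of 2.86, so the differences of Lep carry little order. Leptin is a defining product of white fat, and its probe set was near the bottom of the scale on every array, also in the heart with the highest Adipoq.

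Thrsp encodes the thyroid hormone responsive protein, also known as Spot 14, a nuclear protein induced along with the enzymes of fatty acid synthesis. Its level was 8.36, 8.31 and 8.34 in GlycoHi and 9.36, 9.25 and 9.63 in GlycoLo hearts, against 9.41, 9.14 and 9.39 in WT hearts. The 3 GlycoHi hearts lay within 1.04-fold of each other and below all 6 other hearts, and the GlycoLo hearts overlapped with the WT hearts.

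Fasn encodes fatty acid synthase, which builds palmitate. Its level was 6.50, 6.56 and 6.53 in GlycoHi and 7.42, 6.70 and 7.05 in GlycoLo hearts, against 6.40, 6.59 and 7.20 in WT hearts. The GlycoHi hearts lay within the WT range and below all GlycoLo hearts.

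Scd1 encodes stearoyl-CoA desaturase, which makes oleate from stearate. Its level was 7.93, 8.03 and 8.13 in GlycoHi and 9.63, 8.32 and 8.67 in GlycoLo hearts, against 7.99, 8.23 and 8.68 in WT hearts. GlycoLo replicate 1 was the highest heart for both Scd1 and Fasn, and the GlycoHi hearts lay below all GlycoLo hearts.

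Acaca encodes acetyl-CoA carboxylase 1, which makes the malonyl-CoA that fatty acid synthase uses. Its level was 6.53, 6.37 and 6.56 in GlycoHi and 6.75, 6.29 and 6.79 in GlycoLo hearts, against 6.45, 6.52 and 6.71 in WT hearts. The 3 genotypes overlapped, with a range of 1.42-fold over all hearts.

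**Figure D1:**
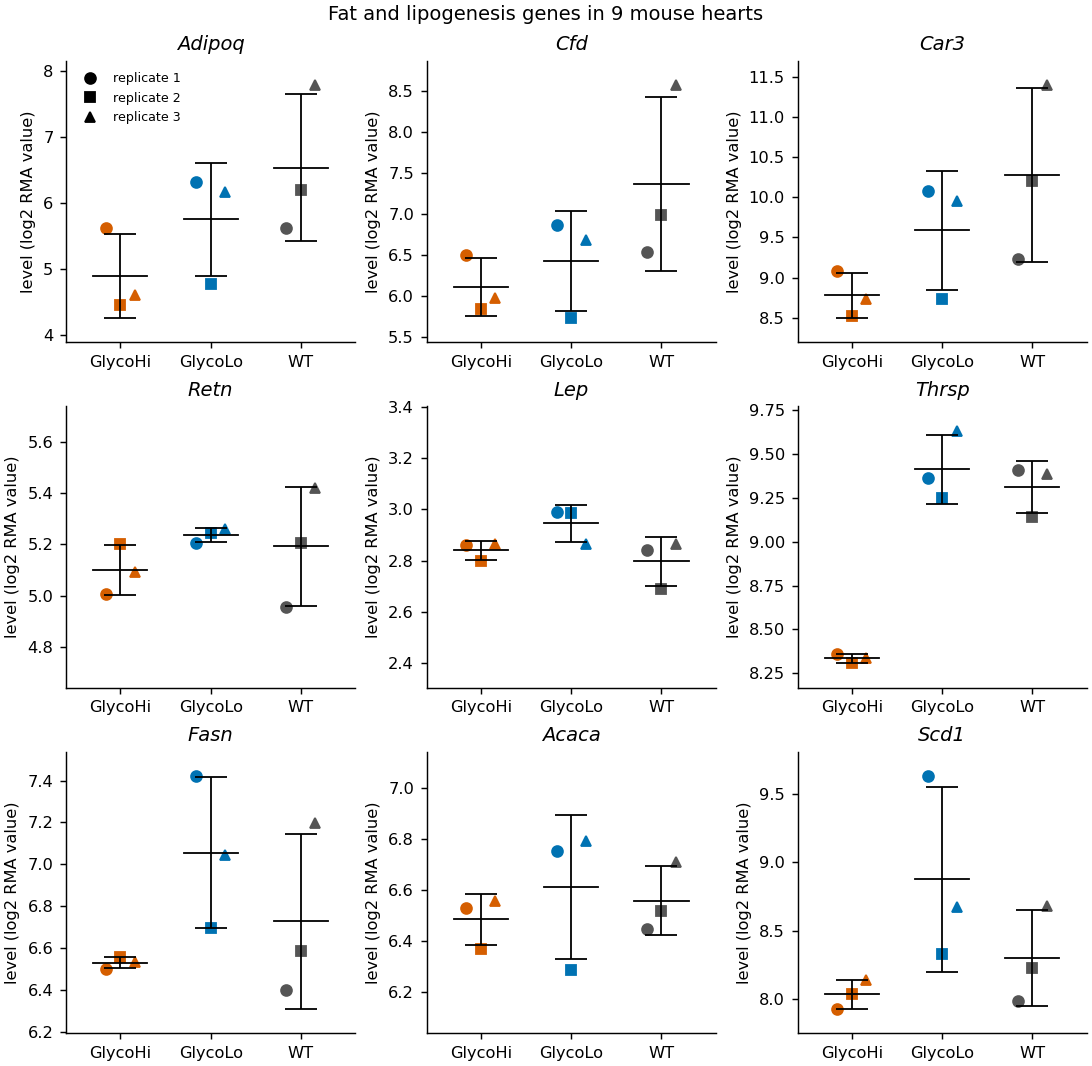
Log2 level of each of the 9 measured genes on every array, with its own vertical scale in each panel; symbols mark the replicate number, horizontal lines the genotype mean and bars the SD (n = 3). In Adipoq, Cfd and Car3 WT replicate 3 is the highest heart, and in Thrsp the GlycoHi hearts lie at 8.31 to 8.36, apart from the other 6.

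GlycoHi hearts were compared with WT hearts to ask how these genes differ when glycolysis is driven high. Of the 9 genes Thrsp fell, 0 rose and 8 were not called at an adjusted p under 0.05, where 2.08% of all probe sets were called in either direction and 1% were called lower. Thrsp averaged 8.33 ± 0.03 in GlycoHi and 9.31 ± 0.15 in WT hearts (SD, n = 3 each), a log2 difference of -0.98 ± 0.10 (SE) or 1.97-fold lower, with a 95% interval of -1.21 to -0.75 (limma, adjusted p = 0.000741). The authors' deposited table gives -0.98 with an adjusted p = 0.000745 for the same contrast.

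The widest differences were in the genes with the widest spread. Adipoq averaged 4.89 ± 0.63 in GlycoHi and 6.53 ± 1.11 in WT hearts (SD, n = 3 each), a difference of -1.64 ± 0.55 with a 95% interval of -2.85 to -0.43, which was not called (limma, adjusted p = 0.185). Car3 averaged 8.78 ± 0.28 in GlycoHi and 10.28 ± 1.08 in WT hearts, a difference of -1.50 ± 0.48 (limma, adjusted p = 0.165). For Cfd the means were 6.11 ± 0.35 in GlycoHi and 7.36 ± 1.06 in WT hearts, a difference of -1.25 ± 0.45 (limma, adjusted p = 0.222). These 3 and Thrsp had groups that did not overlap, 4 of 9 genes against 8.49% of all probe sets in that direction. The same 4 had an unadjusted p under 0.05, against 14.5% of all probe sets. Without WT replicate 3 the differences were -1.02 for Adipoq, -0.94 for Car3 and -0.65 for Cfd (limma, adjusted p = 0.418, 0.371 and 0.450).

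The 5 other genes were not called and their groups overlapped. Scd1 differed by -0.27 ± 0.28 and Fasn by -0.20 ± 0.20, with 95% intervals of -0.88 to 0.35 and -0.65 to 0.25, and without WT replicate 3 by -0.08 and 0.04. Acaca differed by -0.07 ± 0.13, Retn by -0.09 ± 0.11 and Lep by 0.04 ± 0.07. The median difference over the 9 genes was -0.27, against 0.00 over all probe sets.

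GlycoLo hearts were compared with WT hearts to ask the same for low glycolysis, with the same 3 WT arrays as above. Of the 9 genes 0 rose, 0 fell and all 9 had overlapping groups. Of all probe sets 0.0844% were called, 0.0155% higher and 0.0688% lower, and the groups did not overlap in 6.29% that were lower and 6.9% that were higher. By the unadjusted limma p, 0 of the 9 lay under 0.05, against 9.48% of all probe sets. Cfd averaged 6.43 ± 0.61 in GlycoLo and 7.36 ± 1.06 in WT hearts, a difference of -0.93 ± 0.45 with a 95% interval of -1.94 to 0.07 (limma, adjusted p = 0.560). Adipoq differed by -0.78 ± 0.55 and Car3 by -0.69 ± 0.48. Without WT replicate 3 the differences were -0.16 for Adipoq, -0.13 for Car3 and -0.33 for Cfd, and without GlycoLo replicate 2 they were -0.29, -0.26 and -0.59 for the same genes.

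The lipogenic genes of GlycoLo hearts had differences of the other sign or near 0. Scd1 averaged 8.88 ± 0.68 in GlycoLo and 8.30 ± 0.35 in WT hearts, a difference of 0.58 ± 0.28 with an interval of -0.04 to 1.19 (limma, adjusted p = 0.555). Fasn differed by 0.33 ± 0.20, Acaca by 0.05 ± 0.13 and Thrsp by 0.10 ± 0.10, the interval of Thrsp running from -0.13 to 0.33. Without GlycoLo replicate 1, the heart highest in both genes, the differences were 0.20 for Scd1 and 0.14 for Fasn. Retn differed by 0.04 ± 0.11 and Lep by 0.15 ± 0.07. The median over the 9 genes was 0.05, against 0.01 over all probe sets.

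The lines were also compared with each other, which tests whether the genes differ between high and low glycolysis. Thrsp fell in GlycoHi against GlycoLo hearts by 1.08 ± 0.10 on the log2 scale, 2.12-fold, with means of 8.33 ± 0.03 in GlycoHi and 9.42 ± 0.20 in GlycoLo hearts (limma, adjusted p = 0.000406). It was the only one of the 9 genes called, where 1.71% of all probe sets were called in either direction and 0.755% were called lower. The authors' deposited table gives this contrast as GlycoLo minus GlycoHi, with 1.08 and an adjusted p = 0.000409.

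Scd1, Fasn and Retn also had every GlycoHi heart below every GlycoLo heart, which with Thrsp makes 4 of 9 genes, against 8.01% of all probe sets. Scd1 differed by -0.85 ± 0.28, with an interval of -1.46 to -0.23, and was not called (limma, adjusted p = 0.209). Fasn differed by -0.52 ± 0.20, with an interval of -0.97 to -0.08 (limma, adjusted p = 0.298). Without GlycoLo replicate 1 the differences were -0.47 for Scd1 and -0.34 for Fasn. Retn differed by -0.14 ± 0.11 (limma, adjusted p = 0.646), and its groups were almost touching, with GlycoHi replicate 2 at 5.203 and GlycoLo replicate 1 at 5.205. Adipoq, Car3 and Cfd, whose groups overlapped, differed by -0.86 ± 0.55, -0.81 ± 0.48 and -0.32 ± 0.45, and without GlycoLo replicate 2 by -1.35, -1.24 and -0.66. Acaca differed by -0.13 ± 0.13 and Lep by -0.11 ± 0.07.

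**Figure D2:**
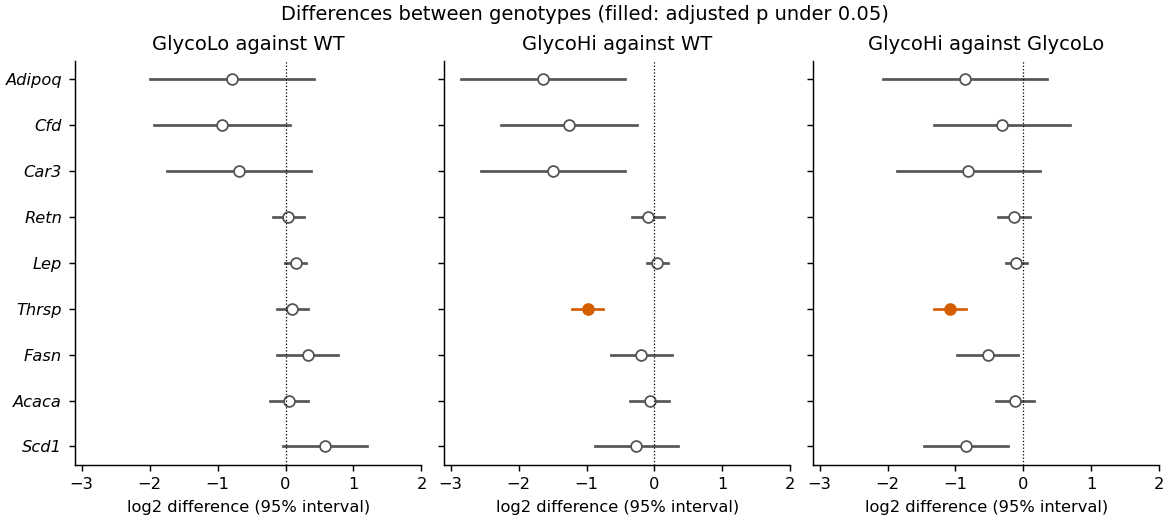
Difference in log2 level for each gene in the 3 comparisons, as the limma estimate (point) with its 95% interval (line); filled points were called at an adjusted p under 0.05. Thrsp is filled in both comparisons that hold GlycoHi hearts, at -0.98 against WT and -1.08 against GlycoLo, and the intervals of Adipoq, Cfd and Car3 are the widest.

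Adipoq, Cfd and Car3 put the hearts of each genotype in the same order. Replicate 1 was highest and replicate 2 lowest in GlycoHi and in GlycoLo hearts, and replicate 3 was highest and replicate 1 lowest in WT hearts. Against Adipoq, Car3 had a Pearson r of 0.98 and a Spearman rho of 0.98 over the 9 hearts (exact permutation test, two-sided, p = 2.48e-05 for r, adjusted p = 0.000198 over the 8 relations tested and adjusted p = 0.000397 for rho). Cfd had r = 0.97 and rho = 0.93 (exact permutation p = 0.00013, adjusted p = 0.000518 for r and 0.00300 for rho). The permutation over the 9 hearts mixes the genotypes, so differences between genotypes also enter these p-values.

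The relation held within genotypes. After subtraction of each genotype's mean, r with Adipoq was 0.98 for Cfd and 0.96 for Car3, with rho of 0.95 and 0.93. An exact permutation within genotypes gave p = 0.00463 for both, the smallest that 216 permutations can give (adjusted p = 0.0185). Per unit of Adipoq on the log2 scale, Cfd changed by 0.81 and Car3 by 0.84 within genotypes. Without WT replicate 3 and GlycoHi replicate 2, the hearts farthest from the median of Adipoq, r over the 7 hearts left was 0.96 for Cfd and 0.94 for Car3 (exact permutation, adjusted p = 0.0135 for both).

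The other 6 genes did not pass this test. Over the 9 hearts r with Adipoq was 0.70 for Acaca, 0.65 for Fasn, 0.62 for Thrsp, 0.51 for Retn, 0.50 for Scd1 and -0.05 for Lep (exact permutation, adjusted p = 0.0870 to 0.897). Their rho was 0.60, 0.62, 0.67, 0.51, 0.65 and 0.22 in the same order of genes. With genotype means subtracted, Fasn had r = 0.85 and Acaca r = 0.83 (exact permutation p = 0.0370 and 0.0278, adjusted p = 0.0741 for both), with slopes of 0.31 and 0.18 that were under those of Cfd and Car3. Scd1 had r = 0.66, Retn 0.47, Thrsp 0.41 and Lep 0.15 in that form (exact permutation, adjusted p = 0.215 to 0.731). Without the 2 farthest hearts r was 0.65 for Acaca, 0.53 for Fasn, 0.54 for Thrsp, 0.21 for Retn, 0.51 for Scd1 and -0.27 for Lep.

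Fasn and Scd1 formed a second pair over the 9 hearts, with differences between genotypes included. Among all 36 pairs of the 9 genes, 4 had an adjusted p under 0.05 over the 9 hearts: Adipoq with Cfd, Adipoq with Car3, Cfd with Car3 and Fasn with Scd1. For Fasn with Scd1 r was 0.94 and rho 0.97 (exact permutation, adjusted p = 0.000595 for r). Without GlycoLo replicate 1 and WT replicate 3, the 2 hearts farthest from the median of Fasn, r was 0.95. With genotype means subtracted their r was 0.90 (exact permutation p = 0.00926, adjusted p = 0.0833). In that form 0 of the 36 pairs had an adjusted p under 0.05. The lowest, 0.0556 by exact permutation, was that of the pairs among Adipoq, Cfd and Car3, whose p was the smallest that 216 permutations can give.

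**Figure D3:**
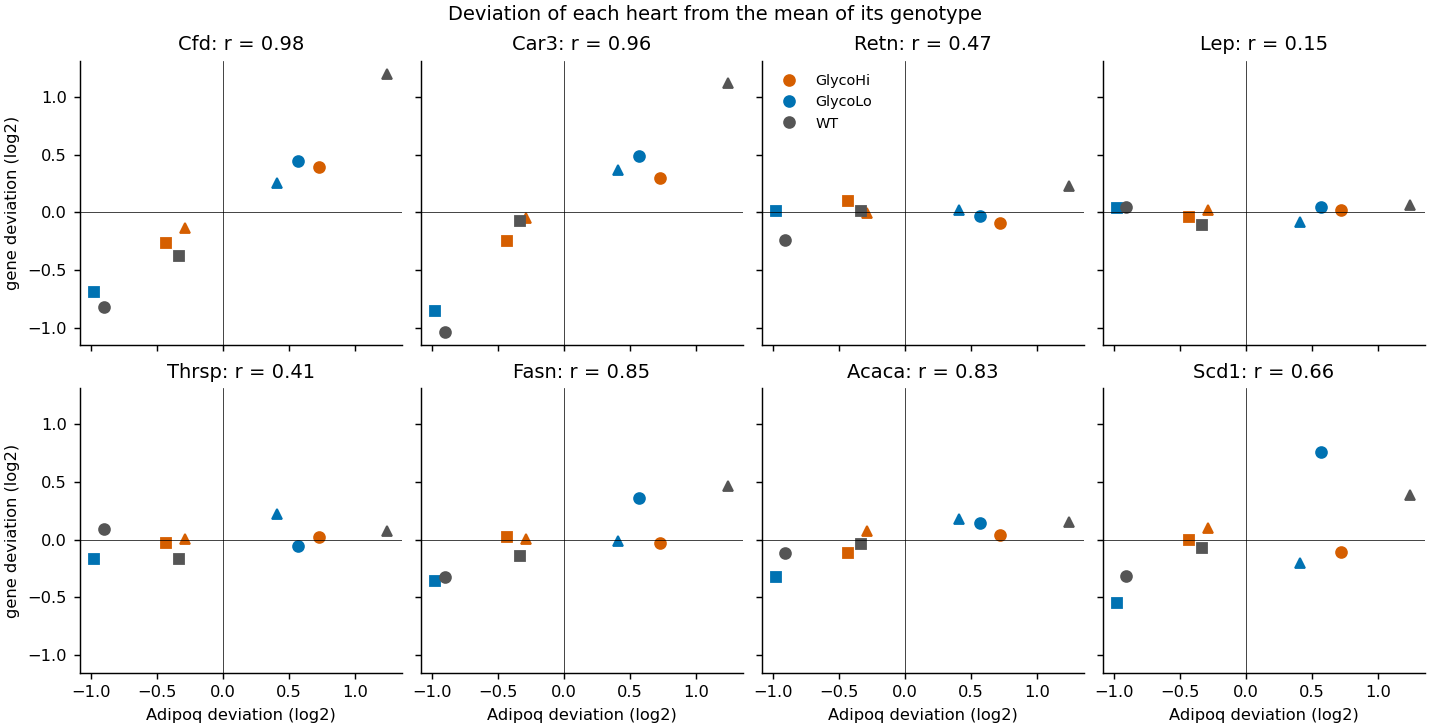
Deviation of each heart from the mean of its genotype, for Adipoq on the horizontal axis and another gene on the vertical axis (log2 units); colours are genotypes, and circles, squares and triangles are replicates 1, 2 and 3. Cfd and Car3 lie along a line (r of 0.98 and 0.96), and Retn, Lep and Thrsp stay near 0 while Adipoq varies.

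The rule by which these genes were chosen asks whether fat on the hearts moves with the values. No array measurement counts fat cells, so further adipocyte genes are given beside the 9. Of 24 other white adipocyte genes, 2 had a within-genotype r with Adipoq over 0.8, which is 8.33% against 1.20% of all probe sets, and the median r was 0.35 against -0.02. These were Pck1, the gluconeogenic and glyceroneogenic carboxykinase, with r = 0.87, and Cyp2e1, a cytochrome P450, with r = 0.85. Pck1 was at 3.09, 3.00 and 2.74 in GlycoHi and 3.25, 2.87 and 3.62 in GlycoLo hearts, against 3.10, 3.72 and 4.40 in WT hearts. Cyp2e1 was at 5.88, 5.33 and 5.91 in GlycoHi and 5.98, 5.68 and 5.98 in GlycoLo hearts, against 6.26, 6.75 and 7.82 in WT hearts. Both were highest in WT replicate 3, the heart with the highest Adipoq, and without it r was 0.74 for Pck1 and 0.69 for Cyp2e1, so neither stayed over 0.8.

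Other genes of the list, several of which the heart itself expresses, ranged widely in r. Lpl, a lipoprotein lipase of heart and fat, had r = 0.72 and Aoc3, an amine oxidase, 0.60. Fabp4, the fatty acid binding protein of fat cells and capillary endothelium, had r = 0.01, Plin4, a lipid droplet protein, 0.03, and Cd36, a fatty acid carrier, -0.78. Cidec, a droplet protein of white fat, had r = 0.63 and lay between 3.06 and 3.68 on all arrays. Without WT replicate 3 r was 0.11 for Cidec, 0.78 for Lpl and 0.47 for Aoc3. It was 0.24 for Fabp4, -0.42 for Plin4 and -0.76 for Cd36 in that form. The summed linear level of the 24 genes was 10566 to 11598 in GlycoHi and 10576 to 10786 in GlycoLo hearts, against 12948 to 13276 in WT hearts. The summed level of the 9 measured genes of this report was 1247 to 1474 in GlycoHi and 1663 to 3051 in GlycoLo hearts, against 1888 to 4671 in WT hearts. In both sums the GlycoHi hearts lay below the WT hearts without overlap, and in the sum of the 24 genes the GlycoLo hearts did as well. Lpl alone made up 59.0 to 63.8% of the sum of the 24. Without it the other 23 summed to 4286 to 4553 in GlycoHi and 4013 to 4332 in GlycoLo hearts, against 4688 to 5145 in WT hearts, still without overlap with WT. The highest of the 23 in WT hearts were Cd36, Acsl1 and Plin4, with means of 10.57, 9.93 and 9.92. Their within-genotype r with Adipoq was -0.78, -0.10 and 0.03. The sum of the 24 was 13037.5, 12948.5 and 13276.1 in WT hearts 1 to 3, which is not the order of Adipoq, so these sums are no measure of fat.

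Of the 24 white adipocyte genes, Lpl fell in GlycoHi against WT hearts and 23 were not called. Lpl, whose product frees fatty acids from lipoproteins, averaged 12.67 ± 0.09 in GlycoHi and 13.00 ± 0.04 in WT hearts, a difference of -0.32 ± 0.07 (limma, adjusted p = 0.0373). In GlycoLo against WT hearts 0 of the 24 were called. In GlycoHi against GlycoLo hearts Adig, the gene of adipogenin, rose by 0.92 ± 0.16, with means of 4.99 ± 0.37 in GlycoHi and 4.08 ± 0.12 in GlycoLo hearts (limma, adjusted p = 0.0148). The median differences were -0.19, -0.23 and -0.05 in the 3 comparisons in this order.

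Brown fat genes were read in the same way, since the fat around the thoracic aorta of a mouse is partly brown. Ucp1, the uncoupling protein of brown fat, was at 3.58, 3.57 and 3.39 in GlycoHi and 4.21, 3.73 and 4.74 in GlycoLo hearts, against 3.53, 5.29 and 6.27 in WT hearts. It was high in WT replicates 2 and 3 and low in WT replicate 1, and its within-genotype r with Adipoq was 0.78, or 0.56 without WT replicate 3. Its difference between GlycoHi and WT hearts, -1.52 ± 0.53, was not called (limma, adjusted p = 0.203). Of 12 brown adipocyte genes 0 had an r over 0.8, and the median was 0.03. Cidea, a droplet protein that mouse heart also expresses, fell in GlycoLo against WT hearts by 0.74 ± 0.10 (limma, adjusted p = 0.0200). Cox7a1, a respiratory chain subunit of heart, muscle and brown fat, fell in GlycoHi hearts by 0.34 ± 0.06 against WT and by 0.35 ± 0.06 against GlycoLo hearts (limma, adjusted p = 0.0158 and 0.0148).

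**Figure D4:**
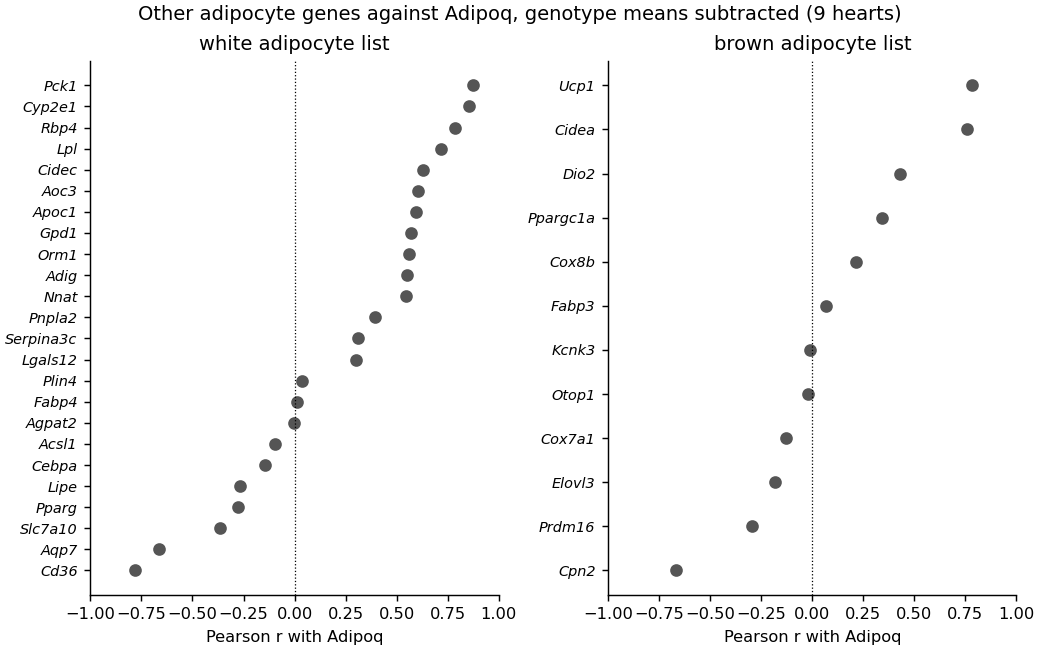
Pearson r with Adipoq over 9 hearts after subtraction of genotype means, for 24 other white adipocyte genes (left) and 12 brown adipocyte genes (right); each point is 1 gene. Pck1 and Cyp2e1 lead the white list at 0.87 and 0.85, Ucp1 leads the brown list at 0.78, and both lists reach below -0.6.

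Other tissues that a heart dissection can hold were measured by their markers. The summed level of 6 atrial genes was 15895 to 23900 in GlycoHi and 28844 to 30960 in GlycoLo hearts, against 21974 to 32643 in WT hearts. Dkk3 of that list fell in GlycoHi against WT hearts by 0.74 ± 0.16 (limma, adjusted p = 0.0392). The 8 mesothelial and epicardial genes summed to 277 to 332 in GlycoHi and 292 to 326 in GlycoLo hearts, against 328 to 463 in WT hearts, with 0 called in any comparison. The 8 skeletal muscle genes, of note beside Car3, summed to 385 to 460 in GlycoHi and 302 to 367 in GlycoLo hearts, against 352 to 395 in WT hearts. The sums for atrium and mesothelium were thus lowest in a GlycoHi heart, replicate 1, and the sum for skeletal muscle was not. That replicate had the highest Adipoq, Cfd and Car3 of the GlycoHi hearts. The median within-genotype r with Adipoq was 0.17 for the atrial, -0.18 for the mesothelial and epicardial and -0.02 for the skeletal muscle genes. Mybpc2 had the highest level of the skeletal muscle genes on every array and weighs most in their sum. It averaged 8.11 in GlycoHi, 7.44 in GlycoLo and 7.74 in WT hearts. The median difference over the 8 genes was -0.06 in GlycoHi against WT, 0.04 in GlycoLo against WT and -0.15 in GlycoHi against GlycoLo hearts. The 7 erythroid genes summed to 275 to 396 in GlycoHi and 287 to 425 in GlycoLo hearts, against 451 to 582 in WT hearts, so both lines lay below WT without overlap. Of these 7, 1 was called lower in GlycoHi against WT hearts and 0 were called in the other comparisons (limma). The part of any of these tissues or cells in the differences of Adipoq, Cfd and Car3 was not tested.

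Genotype differences were also read at equal levels of a fat index, the mean of Adipoq, Cfd and Retn on each array. The index was 5.71, 5.17 and 5.23 in GlycoHi and 6.13, 5.25 and 6.03 in GlycoLo hearts, against 5.71, 6.13 and 7.25 in WT hearts. With the index as a covariate, 0.453% of probe sets were called in GlycoHi against WT hearts, 0.0311% in GlycoLo against WT and 0.977% in GlycoHi against GlycoLo hearts. It was read for 5 genes outside the index, Car3, Thrsp, Fasn, Acaca and Scd1: Thrsp was called in both comparisons with GlycoHi hearts, and the other 4 in none of the 3.

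In this fit Thrsp differed by -0.89 ± 0.14 in GlycoHi against WT hearts, with an interval of -1.19 to -0.58 (limma, adjusted p = 0.0273). The call did not outlast the loss of single hearts: it ended without WT replicate 1 (-0.65, adjusted p = 0.246) or 3 (adjusted p = 0.0629), without GlycoLo replicate 1 (adjusted p = 0.0584), and without GlycoHi replicate 1, 2 or 3 (adjusted p = 0.146, 0.0670 and 0.0664). Against GlycoLo hearts Thrsp differed by -1.04 ± 0.11 in GlycoHi hearts (limma, adjusted p = 0.00186), and this call held without any of the 9 hearts in turn (adjusted p = 0.00303 to 0.0190).

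Car3 in GlycoHi against WT hearts moved to -0.16 ± 0.16 at equal index, with an interval of -0.51 to 0.19, against -1.50 without the index (limma, adjusted p = 0.806), and lay between -0.41 and 0.01 with each heart left out in turn. Within genotypes Car3 had r = 0.96 with Adipoq and 0.97 with Cfd, both in the index, so this shift follows from those relations and is no separate result. Thrsp, with a within-genotype slope of 0.07 on Adipoq, could likewise move little. Fasn in GlycoLo against WT hearts was at 0.61 ± 0.12, with an interval of 0.34 to 0.88 (limma, adjusted p = 0.209), against 0.33 ± 0.20 without it. Scd1 in the same comparison was at 0.87 ± 0.24 (limma, adjusted p = 0.389), against 0.58 ± 0.28, and at 0.47 without GlycoLo replicate 1. In GlycoHi against WT hearts the values of Fasn, Acaca and Scd1 changed sign, to 0.30 ± 0.15, 0.19 ± 0.13 and 0.26 ± 0.29, none of them called. The index is made of genes that themselves may differ by genotype, and 9 arrays hold both, so a part that belongs to the genotype cannot be told apart from a part that belongs to fat.

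**Figure D5:**
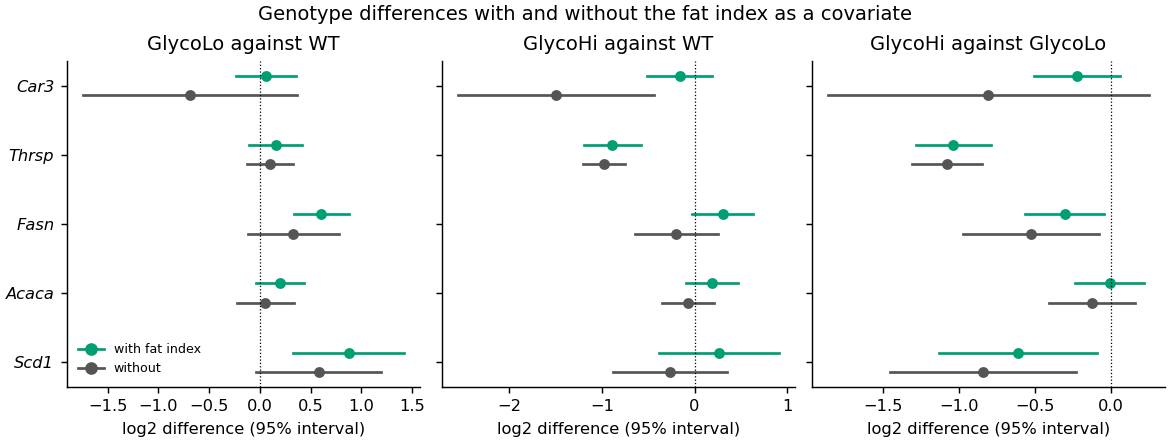
Log2 difference with its 95% interval for the 5 genes outside the fat index, with the index as a covariate (green) and without it (grey), in the 3 comparisons. Car3, which varied with the index genes Adipoq and Cfd, moves to -0.16 in GlycoHi against WT, while Thrsp stays at -0.89 there and at -1.04 in GlycoHi against GlycoLo.

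The rest of the fatty acid synthesis pathway showed few calls. Of 19 other measured genes, Me1, the malic enzyme that supplies NADPH, fell in GlycoHi against WT hearts, by 0.31 ± 0.07 (9.34 ± 0.10 in GlycoHi and 9.65 ± 0.04 in WT hearts; limma, adjusted p = 0.0430), and 18 were not called. In GlycoLo against WT and in GlycoHi against GlycoLo hearts 0 of the 19 were called. The median differences were -0.15, -0.05 and -0.10 in GlycoHi against WT, GlycoLo against WT and GlycoHi against GlycoLo hearts.

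Among 19 regulators of lipogenesis, Mlxipl, the gene of the glucose-responsive factor ChREBP, fell in GlycoHi hearts, by 0.37 ± 0.08 against WT and by 0.43 ± 0.08 against GlycoLo hearts (limma, adjusted p = 0.0332 and 0.0186). Its level was 7.61, 7.36 and 7.56 in GlycoHi and 7.90, 7.96 and 7.95 in GlycoLo hearts, against 7.93, 7.86 and 7.85 in WT hearts, so that the GlycoHi hearts lay below the 6 others, as for Thrsp. Insig1, a sterol-regulated membrane protein that holds back the SREBP factors, rose in GlycoHi against GlycoLo hearts by 0.87 ± 0.11 (limma, adjusted p = 0.00212). Srebf1, the gene of the lipogenic SREBP factor, differed by -0.12 ± 0.06 in GlycoHi and 0.02 ± 0.06 in GlycoLo hearts against WT, neither called.

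Triglyceride synthesis had calls in both directions. Of 14 measured genes, Agpat9, an acyltransferase of its first step, rose in GlycoHi hearts by 0.52 ± 0.08 against WT and by 0.64 ± 0.08 against GlycoLo hearts (limma, adjusted p = 0.00652 and 0.00167). Gpam, the mitochondrial acyltransferase of the same step, rose by 0.67 ± 0.09 in GlycoHi against GlycoLo hearts (limma, adjusted p = 0.00394). Lpin1, a phosphatidate phosphatase, fell in GlycoHi hearts by 0.43 ± 0.06 against WT and by 0.41 ± 0.06 against GlycoLo hearts (limma, adjusted p = 0.00549 and 0.00726), and Agpat3 fell against WT by 0.33 ± 0.07 (limma, adjusted p = 0.0402). In GlycoLo against WT hearts 0 of the 14 were called.

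The receptors and partners of the secreted factors showed 1 call against WT. Cap1, described as a receptor for human resistin, fell in GlycoHi against WT hearts by 0.39 ± 0.07 (limma, adjusted p = 0.0160). Cdh13, the T-cadherin that binds adiponectin on heart and vessel cells, was at 6.13, 5.51 and 5.92 in GlycoHi and 6.75, 6.47 and 6.60 in GlycoLo hearts, against 6.32, 6.44 and 6.39 in WT hearts. It fell in GlycoHi against GlycoLo hearts by 0.75 ± 0.14 (limma, adjusted p = 0.0200). The other 11 of 13 measured genes, the adiponectin receptors Adipor1 and Adipor2 and the leptin receptor Lepr among them, were not called in any comparison.

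The probe sets most like Adipoq were looked for among 582 with 1 symbol and an SD of at least 0.3 over the 9 arrays, leaving out the 9 genes themselves. Over the 9 hearts the highest r belonged to Cpeb4 (0.95), a cytoplasmic polyadenylation factor, Pck1 (0.92), Tbx3 (0.92), a transcription factor of the conduction system, Slc5a3 (0.91), an inositol transporter, Timp3 (0.91), a protease inhibitor, Cdo1 (0.89), a cysteine dioxygenase, and Itga8 (0.89), an integrin, beside 1 sequence tag without a gene name. With genotype means subtracted, 6 of these 8 were among the 8 highest again, joined by Hp (0.90), haptoglobin, and Prkar2b (0.86), a regulatory subunit of protein kinase A that fat cells express. For Thrsp the highest were Tmod4 (0.98), a muscle tropomodulin, Mrps25 (0.98), a mitochondrial ribosomal protein, Alas1 (0.98), of heme synthesis, Csrp2 (0.97), a LIM protein, and St3gal5 (0.97), a sialyltransferase. All 5 lay lower in each GlycoHi heart than in any other heart. These are the top of a ranking over 9 hearts and carry no test.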

How the data were processed

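RNA from 9 whole hearts was extracted with Trizol and hybridised as biotin-labelled cRNA to an Affymetrix mouse array, 1 array per mouse, per the labels' protocols. The values as deposited are on the log2 scale and come from RMA, per the file headers and the submitters' processing notes. A second deposited table pairs these log2 values with gene symbols and with the authors' own differences, p-values and adjusted p-values, which they made with limma per the submitters' processing notes. Its 20662 rows name the probe sets used here. Not given in the sources used here are tool versions, background settings and the genome build of the array.

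Of 45101 probe sets, 64 control probe sets were left out. One limma 3.58.1 model in R 4.3.3 with the 3 genotypes was fitted to the 9 arrays (6 residual and 4.66 prior degrees of freedom). P-values were adjusted by Benjamini-Hochberg over 45037 probe sets and called under 0.05. Errors of differences are SE, and errors of levels SD. With 3 mice against 3, an exact permutation test cannot go below p = 0.1. Plin1 has no row, so the fat index, planned over 4 genes, is the mean of 3. The number of arrays limits the precision, and values near the bottom of the scale are close to background. No label says whether mice shared a litter or day.

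The steps were tested on simulated data (GlycoHi against WT, 45037 probe sets). Of 50 probe sets shifted by 0.5 (log2), 72% were recovered, and of 50 shifted by each of 1, 2 and 4, all. There were 12 false calls among 198. Noise was drawn independently for each probe set at its own estimated variance, and the shifted probe sets were picked at random. These rates therefore cannot be carried over to genes with a spread as wide as that of Adipoq, Cfd and Car3. In the real data a difference of -1.64 ± 0.55 in Adipoq was not called.

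The members and all gene lists were chosen with earlier results of these data known. The text names all members on every array, every called gene of the pathway and cell type lists, otherwise up to 2 genes per pathway list with the smallest F-test p, the 8 non-member probe sets most like Adipoq in each form and the 5 most like Thrsp. Fabp4, Plin4, Cd36, Cidec, Aoc3, Ucp1, Pck1, Cyp2e1, Srebf1, Adipor1, Adipor2, Lepr, Tnni3 and Pfkfb1 were named for their roles after values were seen. Some genes that this rule picks are not reported here. Promoters are from RefSeq. Drawing used matplotlib 3.10.9.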

Additional observations from a re-analysis of the deposited data

How the results depend on the processing

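The counts of called genes, 1, 0 and 1 of 9 in GlycoHi against WT, GlycoLo against WT and GlycoHi against GlycoLo, were the same under all alternatives tried: cyclic loess, array weights, a robust and trended variance, medians set equal, 50 added to the linear values, dim probe sets left out (Lep among them), a fit of the 6 arrays alone, a replicate block, Adipoq as a covariate, and each array left out in turn. Thrsp ranged over -1.06 to -0.87 against WT and -1.16 to -0.97 against GlycoLo. Adipoq in GlycoHi against WT ranged over -2.09 to -0.88 and was never called (limma, adjusted p = 0.109 to 0.418). With Adipoq as a covariate, uncalled values changed sign in GlycoHi against WT for Retn (0.04), Cfd (0.08), Fasn (0.30), Acaca (0.22) and Scd1 (0.28), and in GlycoHi against GlycoLo for Cfd (0.38) and Acaca (0.02). Leaving out arrays in the fit with the fat index, an alternative chosen after seeing the data, gave 0 to 1 called genes in GlycoHi against WT. Both relations with Adipoq that passed did so in every form when adjusted over the 8 relations. Adjusted over the 36 pairs, neither passed with genotype means subtracted (exact permutation, adjusted p = 0.0556 for both). Correlations of other adipocyte genes without WT replicate 3 and the sum without Lpl were likewise chosen after seeing the data. Over all probe sets, and leaving aside arrays left out of the fat index fit (down to 45, 1 and 200), calls numbered 191 to 1875 in GlycoHi against WT, 13 to 256 in GlycoLo against WT and 375 to 1547 in GlycoHi against GlycoLo, against 938, 38 and 771. Same-numbered arrays deviated together weakly or not (r -0.02 to 0.12), and arrays of different number had r of -0.11 to 0.06. The highest r were those of WT replicate 1 with replicate 1 of GlycoLo (0.12) and of GlycoHi (0.10). Whether the numbers mark something shared cannot be told from these values. With the replicate block the counts of called genes stayed at 1, 0 and 1, and those of all probe sets were 775, 17 and 627. Signal limits what could be seen of Lep, whose probe set lay between the percentiles 7.51 and 15.8 of the arrays.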

Other observations

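Cholesterol synthesis, which shares its sterol-sensing factors with lipogenesis, had 0 of 15 measured genes called in each comparison (limma), with median differences of 0.11 in GlycoHi against WT, 0.09 in GlycoLo against WT and 0.01 in GlycoHi against GlycoLo hearts. Sc5d, a late desaturase, differed by 0.33 ± 0.09 in GlycoHi against GlycoLo hearts (limma, adjusted p = 0.104).

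Of the cell type lists not described above, those for endothelium, fibroblasts, macrophages and lymphocytes had 0 called genes in the 3 comparisons (limma). Myh6, the fast cardiac myosin, fell in GlycoHi hearts by 0.70 ± 0.10 against WT and by 0.47 ± 0.10 against GlycoLo hearts (limma, adjusted p = 0.00444 and 0.0421). In GlycoHi against GlycoLo hearts Dbh of the nerve list fell by 0.43 ± 0.08, and of the skeletal muscle list Mybpc2 rose by 0.66 ± 0.13 while Tnni2 fell by 0.48 ± 0.09 (limma, adjusted p = 0.0313, 0.0272 and 0.0199).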
